A study of Homo sapiens with 5 samples.

Results

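The genes described here encode 10 secreted matrix components that are not collagens. They were FN1 (fibronectin), SPARC (osteonectin), THBS1 (thrombospondin 1), TNC (tenascin C), the laminin chain genes LAMA4, LAMB1 and LAMC1, FBN1 (fibrillin 1), LOX (lysyl oxidase) and LOXL2 (lysyl oxidase-like 2). The genes were taken by symbol, and all 10 symbols were found among the 27189 genes listed in each library. All 10 were also among the 21163 genes with at least 1 TPM (transcripts per 1000000, a level corrected for transcript length) in at least 1 library, and each of the 10 passed that minimum in every library. The material was HT1080, an established human fibrosarcoma cell line, embedded in rat-tail type I collagen gels of 2 mg per ml and lysed after 24 h. Untreated cells at 10 cells per cubic mm formed the low-density condition (LD). The same low density was used for recombinant IL-6 (condition IL-6), for recombinant IL-8 (condition IL-8) and for both cytokines in a ratio of 5 to 2 (condition RM), which according to the methods of the study matched their concentrations at high density. Cells at 50 cells per cubic mm formed the high-density condition (HD), for which the sample's own label gives no cytokine, although the treatment protocol shared by all samples can be read as adding cytokines at both densities. The concentrations themselves are not given in the labels, all conditions rest on 1 cell line, and the gel itself supplied type I collagen in every condition. Each condition is 1 library from 1 experiment, so no difference below has a replicate check and no test of a condition is possible.

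Fibronectin, laminins and fibrillin build the fibrous and sheet-like scaffolds to which cells attach through integrins. A laminin is a trimer of 1 α, 1 β and 1 γ chain, and the chains encoded by LAMA4, LAMB1 and LAMC1 can assemble into a single molecule of vascular and mesenchymal basement membranes. SPARC, thrombospondin 1 and tenascin C are matricellular proteins, which modulate how cells bind and reshape the matrix rather than bearing load. LOX and LOXL2 oxidise lysine residues, the step that starts the covalent crosslinking of collagen and elastin. Matrix of this kind is a characteristic product of fibroblast-like and sarcoma cells.

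Read depth set the precision of every value. The 4 low-density libraries held between 5096134 and 7118545 counted reads and the HD library 926376. A single ribosomal entry, RNA5-8S5, took 76.9 to 79.6% of the reads in the low-density libraries and 51.5% in HD, which left 1100967 to 1645539 reads and 449661 reads on all other genes. CPM (reads per 1000000) is therefore given below over the reads outside RNA5-8S5, and a count of 3 reads corresponded to 1.82 to 2.73 CPM at low density and to 6.67 CPM in HD. The HD library stood apart in other ways too. Of 368 olfactory receptor genes, which have no known role in these cells, between 10 and 32 had a read in a low-density library and 226 had one in HD. The mesenchymal markers VIM, CDH2, CD44, NT5E, S100A4, TWIST1, SNAI2 and PRRX1 summed to between 2007 and 3807 TPM at low density, with 6 or 7 of 8 having a read, and to 451 TPM in HD with 7 of 8. VIM carried nearly all of that sum, with 1941 to 3676 TPM at low density and 412.9 TPM in HD. NT5E was at 0 in the 4 low-density libraries, PRRX1 in 3 of them, and TWIST1 in HD. Of the epithelial list (CDH1, EPCAM, KRT19, CLDN7, ESRP1 and GRHL2 of the 7 symbols chosen), between 1 and 3 of 6 had a read at low density, where EPCAM, CLDN7 and ESRP1 were at 0, and 6 of 6 in HD. The summed epithelial level was 3.11 to 28.7 TPM at low density, most of it KRT19 in LD (27.6 TPM), and 225 TPM in HD. The endothelial list (PECAM1, VWF, CDH5 and KDR) summed to 0.480 to 1.08 TPM at low density, with VWF and KDR at 0, and to 58.4 TPM in HD. Of the leukocyte list, LCP1 carried 90.3 to 175.6 TPM at low density while CD14 and CD3E were at 0, and in HD these 3 genes and PTPRC all had a read. VIM was thus well above the markers of the other lineages at low density, although not every mesenchymal marker had a read, and in HD genes of other lineages had reads beside them, so levels are given below over the 4 low-density libraries and with HD. The part of depth, of the ribosomal share or of reads on other cell types' genes in the HD differences was not tested.

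The first question was how many of the matrix genes differed from LD after each cytokine, after both and at high density. A gene was counted as higher or lower when its log2(TPM + 1) value differed by at least 1 unit, a fixed fold with no test behind it, on a scale that understates the change of low genes. With IL-6, 0 of 10 genes were higher, against 9.84% of all genes compared, and 0 of 10 were lower, against 7.47%. With IL-8, 0 of 10 were higher (7.99% of all genes) and 1 of 10 was lower (16.4% of all genes), which was LAMA4. In RM, LAMA4 was the 1 gene counted as higher (6.44% of all genes), on TPM only since its sign turned on CPM, and THBS1 the 1 gene counted as lower (20.4% of all genes). In HD, TNC was the 1 gene counted as higher, where 61.9% of all genes were higher, and 5 of 10 were lower (SPARC, LAMC1, LAMB1, LOXL2 and FN1), where 17.9% of all genes were lower. The RM counts were thus below or near those over all genes. In HD more of the 10 genes were lower than higher, whereas most of all genes compared were higher. That majority was not seen among the 7380 genes with a mean of at least 10 TPM over the 5 libraries. Of these, 39.3% were higher and 36.2% lower. All 4 comparisons share the LD library.

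**Figure D1:**
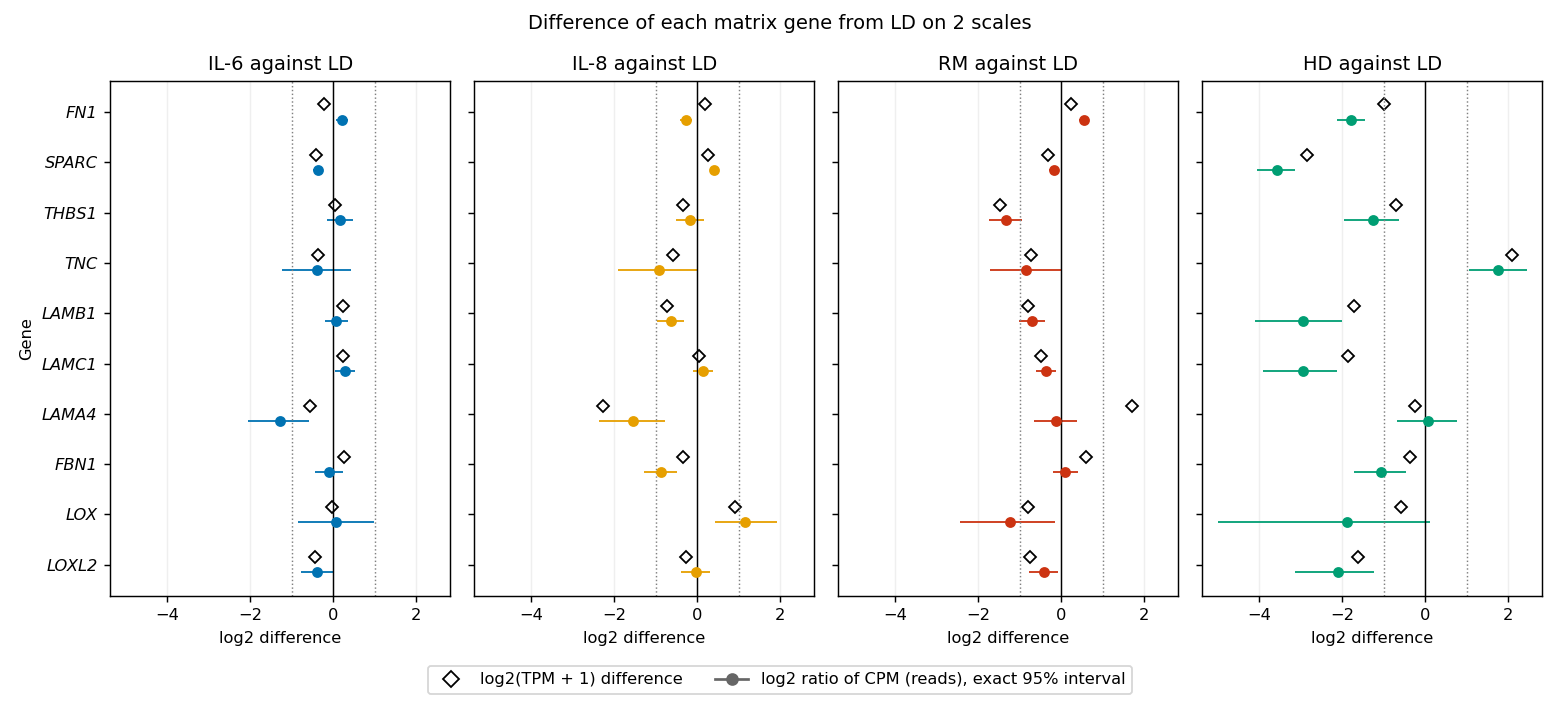
Difference of each of the 10 matrix genes from LD in the IL-6, IL-8, RM and HD libraries (1 library each, horizontal axis in log2 units). Diamonds show the difference of log2(TPM + 1), circles the log2 ratio of CPM with its exact 95% counting interval, and dotted lines mark 1 log2 unit. In HD most genes lie left of 0 and TNC lies right of it, and in RM the diamond of LAMA4 stands at 1.69 while its circle lies near 0.

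The medians of the 10 genes were read beside the shift of the libraries themselves. Over the 7901, 7086, 7065 and 4774 genes with at least 10 reads in both libraries, the median log2(TPM + 1) difference from LD was 0.01 with IL-6, -0.27 with IL-8, -0.42 in RM and 0.83 at HD. The median over the 10 matrix genes was -0.13, -0.31, -0.61 and -0.85 in the same order. The gap between these genes and this background was therefore small in the 3 cytokine libraries and was widest in HD. A minimum of 10 reads is a higher level in the shallower HD library, so there this background favours genes that are high in HD. Of the 10 matrix genes, 8 reached it in LD and HD. Over genes with a mean of at least 10 TPM the median was 0.02, -0.23, -0.38 and -0.05 in the same order, which makes the HD gap smaller. Among the 7380 genes with a mean of at least 10 TPM over the 5 libraries, 39.3% were higher in HD and 36.2% were lower, so the excess of higher genes in HD lay mostly among genes of low level. At least 1 read was found on 20113 genes in HD and on 13469 to 15080 genes in a low-density library, and the share of reads on the 10 matrix genes was 0.235 to 0.263% at low density and 0.0583% in HD. In bulk libraries such as these, fewer cells expressing a gene and less RNA per cell cannot be told apart.

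**Figure D2:**
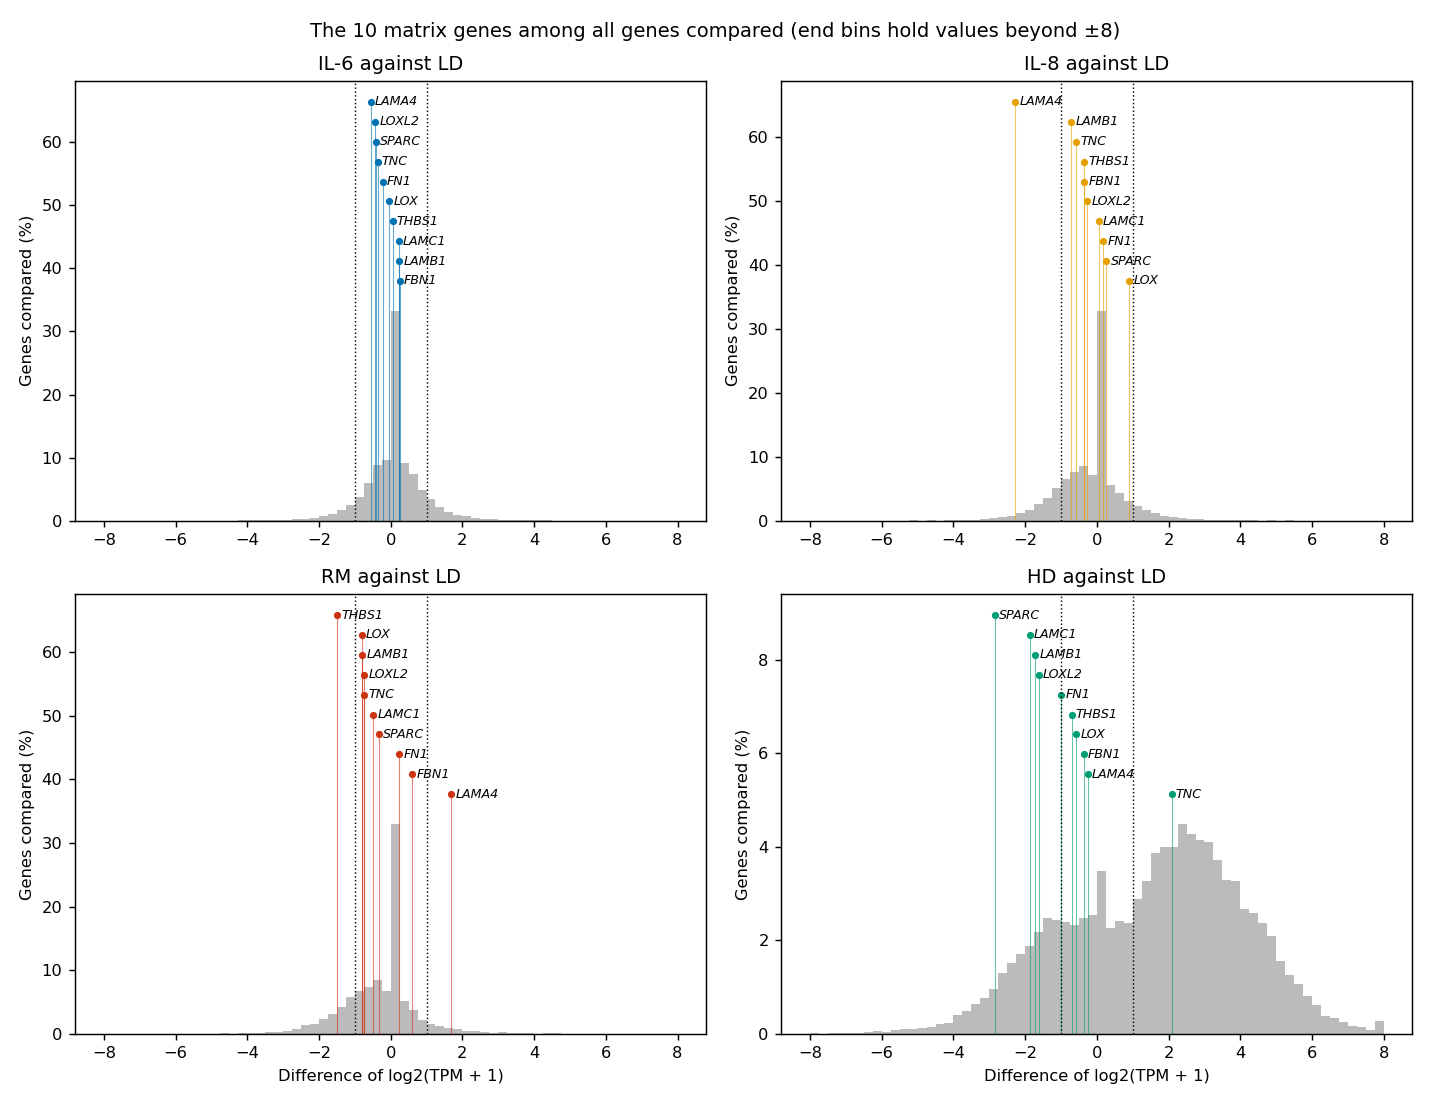
The 10 matrix genes (labelled points, with heights staggered for legibility only) over the distribution of all 21163 genes compared (grey bars, percent of genes per bin of the log2(TPM + 1) difference from LD, vertical axes differ between panels). The IL-6, IL-8 and RM distributions centre near 0 and most matrix genes lie inside the dotted lines at 1 log2 unit, whereas the HD distribution peaks above 2 and TNC is the 1 matrix gene on that side.

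FN1 and SPARC were the most highly expressed genes of the group per length at every low-density condition. FN1, the integrin ligand that cells assemble into fibrils, was counted on 997 reads in LD, 771 with IL-6, 562 with IL-8, 1267 in RM and 79 at HD. Its level was 108 TPM in LD, 92.5 with IL-6, 123 with IL-8, 127 in RM and 53.4 at HD. The 4 low-density libraries thus spanned 1.38-fold, and HD was the lowest of the 5, at -1.004 log2 units from LD. On reads, FN1 was 1.46 times the LD value in RM (95% exact interval 1.34 to 1.59, which like all intervals here covers counting error only, as amplified cDNA reads are not independent molecules). The direction of its small TPM differences with IL-6 and IL-8 (-0.22 and 0.18 log2 units) turned on the read scales, with CPM ratios of 1.16 (1.05 to 1.27) and 0.828 (0.745 to 0.919). The scale was varied in 8 settings (TPM with pseudocounts of 1, 0.1 and 5, TPM without RNA5-8S5, CPM over all reads and outside RNA5-8S5, edgeR's TMM, which scales by a trimmed mean of gene ratios, and centring on the median of well-counted genes), and FN1 in HD was below LD in all 8, at -0.71 to -2.33 log2 units.

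SPARC, a collagen-binding glycoprotein and the most counted gene of the 10, had 1830 reads in LD, 942 with IL-6, 1636 with IL-8, 1403 in RM and 42 at HD. These corresponded to 364, 272.5, 436, 288 and 49.9 TPM. SPARC was highest with IL-8, 1.31 times LD on reads (1.23 to 1.40), and was 0.769 times LD with IL-6 (0.711 to 0.833). Both ratios lay beyond counting error and under the fold counted as a difference, with a TPM span of 1.60-fold over the low-density libraries. In RM its value was -0.33 log2 units from LD, a sign that turned under TMM and after centring. HD was far below, at -2.84 log2 units on TPM and at 0.0840 times LD on reads (0.0603 to 0.114), the largest difference from LD of any of the 10 genes in HD. Across the 8 settings that difference ran from -2.48 to -4.07 log2 units. The ratio of FN1 to SPARC per length was 0.298 in LD, 0.339 with IL-6, 0.282 with IL-8, 0.441 in RM and 1.07 at HD (0.728 to 1.60), so that SPARC stood above FN1 at low density and the pair could not be ranked in HD.

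**Figure D3:**
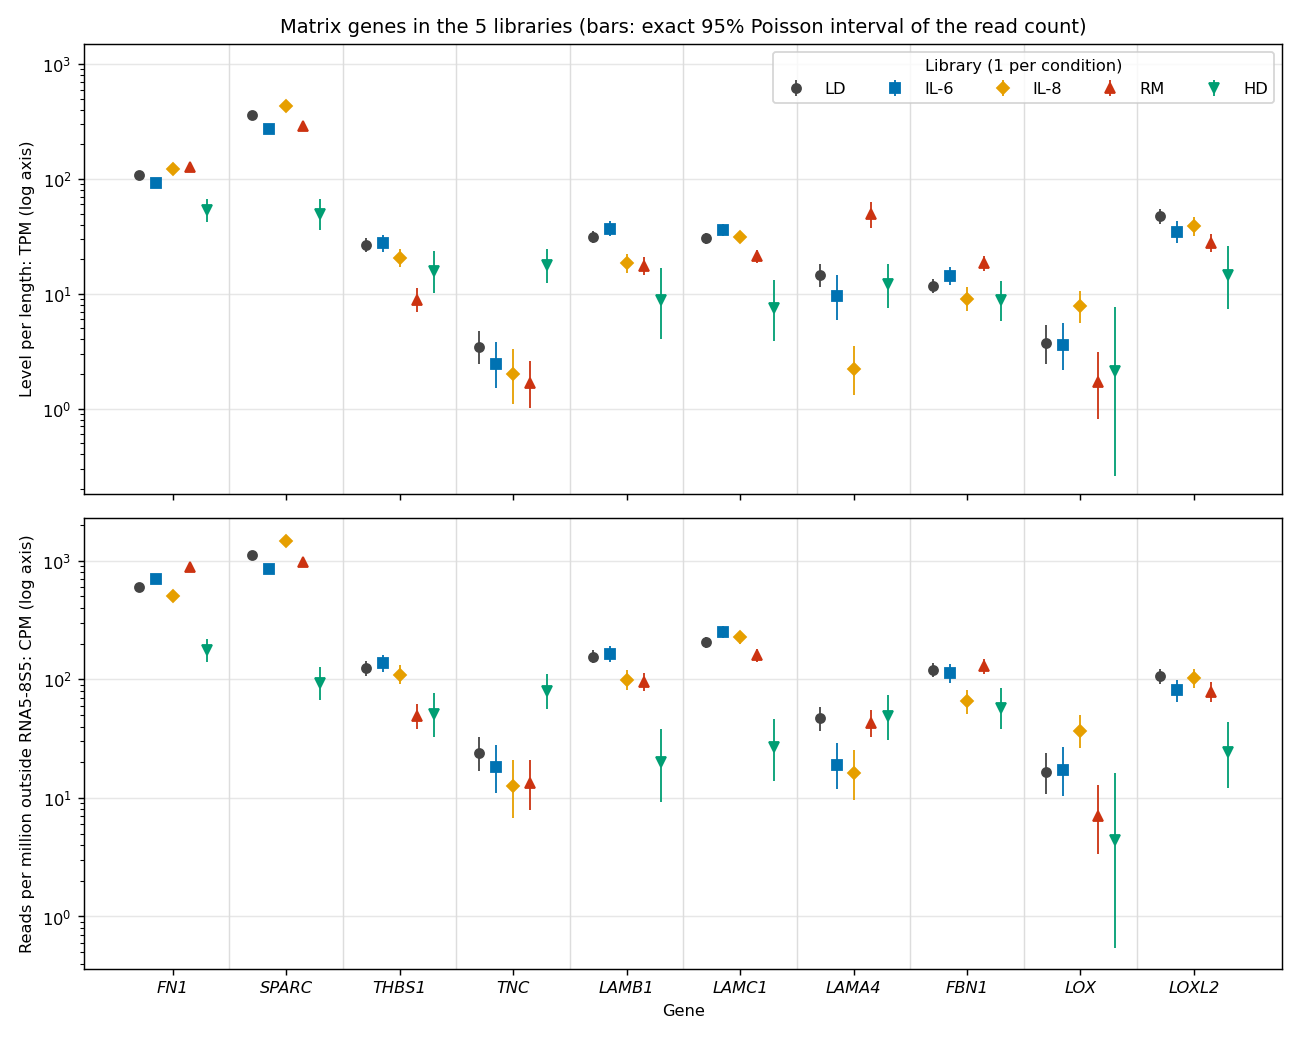
Levels of the 10 matrix genes in the 5 libraries, as TPM (upper panel) and as CPM over reads outside RNA5-8S5 (lower panel), both on log axes. Each point is 1 library and each bar the exact 95% Poisson interval of its read count. SPARC and FN1 top both panels at low density, and TNC is the gene whose HD point lies above its 4 low-density points on both scales.

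The matricellular genes THBS1 and TNC followed different patterns. THBS1, an adhesive glycoprotein that also activates latent TGF-β, was counted on 203 reads in LD, 151 with IL-6, 123 with IL-8, 70 in RM and 23 at HD. Its level was 26.5 TPM in LD, 27.5 with IL-6, 20.6 with IL-8, 8.81 in RM and 15.9 at HD. RM was the lowest library of the 5 and its interval (6.87 to 11.1 TPM) did not meet those of the other 3 low-density libraries, the nearest of which was IL-8 (17.1 to 24.5 TPM). It did overlap the HD interval (10.05 to 23.8 TPM). On reads HD was also below LD, at 0.415 times (0.257 to 0.640), so RM and HD could not be told apart for THBS1. The RM level was at -1.49 log2 units from LD, with a read ratio of 0.396 (0.297 to 0.522). Neither cytokine alone gave such a value, as the read ratios to LD were 1.11 (0.895 to 1.38) with IL-6 and 0.890 (0.705 to 1.12) with IL-8, and both intervals included 1. RM also lay below IL-6 at 0.356 times (0.264 to 0.476) and below IL-8 at 0.445 times (0.327 to 0.601). The decrease in RM held its direction in all 8 settings and its size of 1 log2 unit in 7 of them, with a difference of -0.87 under TMM. It stood at the 10.7th percentile of all genes compared in that comparison, so many genes of that library lay lower still.

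THBS1 was the 1 gene of the 10 counted as lower in RM against LD and against both single cytokines, and its upstream sequence is shown for that reason. The 250 bases before its RefSeq start on GRCh38.p14, chr15:39580829-39581078 on the plus strand, hold 69.6% G and C and 4 matches to the GC box GGGCGG (searched on both strands and printed in capitals).
THBS1: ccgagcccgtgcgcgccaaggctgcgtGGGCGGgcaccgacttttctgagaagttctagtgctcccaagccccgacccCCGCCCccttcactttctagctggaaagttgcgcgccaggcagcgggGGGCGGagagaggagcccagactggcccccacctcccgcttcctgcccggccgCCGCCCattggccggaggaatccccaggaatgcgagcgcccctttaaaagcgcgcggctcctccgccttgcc
No match to the STAT motif TTCCNGGAA, the AP-1 motif TGANTCA or the TATA box TATAAA was found in this window, and a match or its absence only describes these letters. Among all 35116 RefSeq promoter windows of this length, 42.6% held a GC box, 0.968% the STAT motif, 6.57% the AP-1 motif and 10.7% the TATA box. Promoter entries were found for 9 of the 10 genes. A GC box was present in 6 of these 9 (THBS1, FN1, LAMB1, LAMC1, TNC and LOX) and the STAT motif in 0.

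TNC, an anti-adhesive protein of tumour stroma and healing wounds, was barely counted at low density, with 39 reads in LD, 20 with IL-6, 14 with IL-8 and 19 in RM. It had 36 reads in the far shallower HD library. Its level was 3.45 TPM in LD, 2.46 with IL-6, 1.98 with IL-8, 1.67 in RM and 17.8 at HD. HD was thus the highest library, at 2.08 log2 units above LD and 3.38 times its CPM (2.09 to 5.46), and its TPM interval of 12.5 to 24.7 lay above those of the 4 others, which ended at 4.72 or lower. The difference stayed above 1 log2 unit in all 8 settings (1.06 to 2.62). Among all genes compared in HD against LD the value was near the middle, at the 53.4th percentile, where the median gene was 1.87 log2 units higher. Over the 4774 genes with at least 10 reads in both libraries, TNC included, the median was lower. It was 0.83 log2 units on TPM and 0.21 on CPM, beside 2.08 and 1.71 for TNC. Among the cytokine libraries the read ratios of 0.527 (0.264 to 0.992) with IL-8 and 0.559 (0.305 to 0.991) in RM excluded 1 by a narrow margin.

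The laminin β1 and γ1 chains ran close together in most libraries, and the α4 chain did not run with them. LAMB1 had 255 reads in LD, 180 with IL-6, 111 with IL-8, 136 in RM and 9 at HD, and its level was 31.2, 36.9, 18.5, 17.5 and 8.79 TPM. LAMC1 had 338, 275, 253, 229 and 12 reads in the same order and 30.3, 35.6, 31.4, 21.3 and 7.55 TPM. On TPM both were highest with IL-6 and lowest in HD, where LAMB1 lay at -1.72 and LAMC1 at -1.87 log2 units from LD on only 9 and 12 reads. Their CPM ratios of HD to LD were 0.129 (0.0584 to 0.249) and 0.130 (0.0665 to 0.230), and both genes were at least 1 log2 unit lower in all 8 settings.

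Because a laminin trimer holds 1 chain of each kind, the chains were also compared per length within each library. The TPM ratio of LAMB1 to LAMC1 was 1.03 in LD (0.871 to 1.21) and 1.03 with IL-6 (0.852 to 1.25). It was 0.589 with IL-8 (0.467 to 0.739), 0.822 in RM (0.660 to 1.02) and 1.16 at HD (0.433 to 3.01). The IL-8 library was therefore the 1 library in which the interval excluded an even ratio, and there LAMB1 stood at 0.639 times its LD reads (0.507 to 0.802) while LAMC1 stood at 1.10 times (0.930 to 1.30). In RM both were under LD on reads, LAMB1 at 0.612 times (0.493 to 0.756) and LAMC1 at 0.777 times (0.654 to 0.922), differences that stayed below 1 log2 unit, and the sign for LAMC1 turned under TMM.

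The upstream sequences of this pair are shown since both genes were counted as lower in HD, by similar amounts. The 250 bases before the RefSeq starts on GRCh38.p14 were taken from chr7:108003162-108003411 on the minus strand for LAMB1 and from chr1:183023170-183023419 on the plus strand for LAMC1.
LAMB1: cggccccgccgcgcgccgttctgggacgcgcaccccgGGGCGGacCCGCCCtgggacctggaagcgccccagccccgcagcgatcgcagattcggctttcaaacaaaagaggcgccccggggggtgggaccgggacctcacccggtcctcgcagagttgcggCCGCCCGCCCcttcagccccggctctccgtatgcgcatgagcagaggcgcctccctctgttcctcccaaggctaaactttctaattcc
LAMC1: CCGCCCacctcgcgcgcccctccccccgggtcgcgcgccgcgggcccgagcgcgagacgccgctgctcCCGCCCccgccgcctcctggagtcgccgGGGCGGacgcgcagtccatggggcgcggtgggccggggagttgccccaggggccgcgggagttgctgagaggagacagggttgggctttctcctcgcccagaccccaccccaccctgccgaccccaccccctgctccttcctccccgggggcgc
Capitals mark the GC box GGGCGG on either strand. LAMB1 held 4 matches, some of which overlap each other, in 70.4% G and C, and LAMC1 held 3 in 79.6% G and C. The windows of LAMA4, SPARC and FBN1 held no GC box.

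LAMA4, the α chain of laminins in vessels and soft tissue, was counted on 77 reads in LD, 21 with IL-6, 18 with IL-8, 61 in RM and 22 at HD. The TPM values were 14.6 in LD, 9.58 with IL-6, 2.21 with IL-8, 49.3 in RM and 12.1 at HD, a 22.4-fold span from IL-8 to RM that was the widest of the 10 genes at low density. On reads the span at low density was 2.91-fold, from 16.1 CPM with IL-8 to 46.8 CPM in LD. With IL-8, LAMA4 was lower on both scales, at -2.28 log2 units on TPM and at 0.343 times LD on reads (0.193 to 0.579), and at least 1 log2 unit lower in all 8 settings. With IL-6 the read ratio was 0.408 (0.239 to 0.668), past the fold in 3 of 8 settings, and the TPM difference was -0.56 log2 units. In RM the scales parted, as TPM placed LAMA4 1.69 log2 units above LD while the read ratio was 0.909 (0.639 to 1.29) and the sign turned on both CPM scales. Against the single cytokines RM was higher on either scale, at 2.23 times the CPM of IL-6 (1.34 to 3.86) and 2.65 times that of IL-8 (1.54 to 4.76).

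The scales differ in the length by which the reads are divided. RSEM estimates an effective transcript length for each gene in each library, so the reads behind 1 unit of TPM can differ between libraries. For LAMA4 in RM that quantity was 0.242 times its LD value, at the 0.127th percentile of 7065 genes with at least 10 reads in both libraries, for which the range from the 5th to the 95th percentile was 0.734 to 1.23. It was 0.605 times LD with IL-6, 2.08 with IL-8 and 2.04 in HD. GENCODE 29 lists 22 LAMA4 transcripts of 331 to 6547 bases, and the files do not say which of them the reads were given to. FN1 with IL-6 (1.32) and IL-8 (0.666) and FBN1 with IL-6 (0.757), IL-8 (0.645) and RM (0.614) also lay outside that range in their libraries, while SPARC stayed between 0.987 and 1.00 in all 4 libraries. Which transcripts took the reads was not examined.

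**Figure D4:**
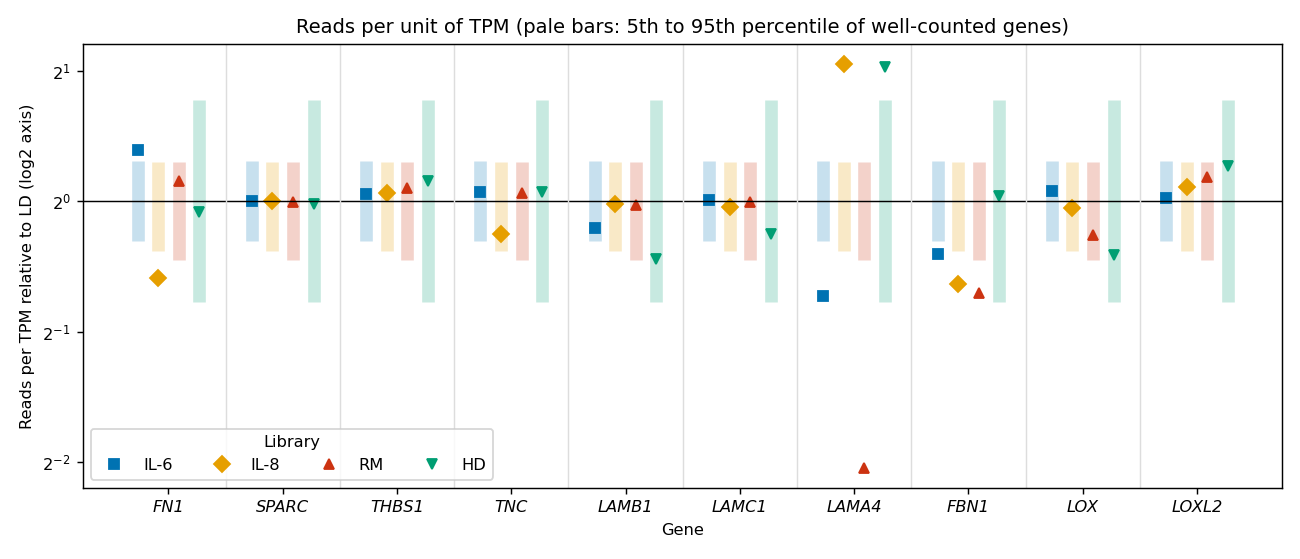
Reads behind 1 unit of TPM for each matrix gene, relative to LD (vertical log2 axis), in the IL-6, IL-8, RM and HD libraries. Pale bars span the 5th to 95th percentile of genes with at least 10 reads in both libraries. LAMA4 leaves the bars in all 4 libraries and lies lowest in RM at 0.242, whereas SPARC sits on 1.

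FBN1, the backbone of the microfibrils on which elastin is deposited, had the narrowest span of the 10 genes over all 5 libraries, 2.08-fold on TPM and 2.22-fold on CPM. It had 198 reads in LD, 124 with IL-6, 73 with IL-8, 184 in RM and 26 at HD, and 11.8, 14.2, 9.05, 18.5 and 8.88 TPM. On TPM, RM was highest and HD lowest, and no difference from LD reached 1 log2 unit. On reads, IL-8 stood at 0.541 times LD (0.408 to 0.712) and HD at 0.481 times (0.306 to 0.725), while the ratios of IL-6 (0.742 to 1.18) and RM (0.868 to 1.31) included 1. RM exceeded IL-8 by 1.97 times on reads (1.49 to 2.62).

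The crosslinking enzymes LOX and LOXL2 were present at very different levels. LOXL2, which acts on collagen IV and fibrillar collagens, had 174 reads in LD, 89 with IL-6, 115 with IL-8, 113 in RM and 11 at HD. Its level was 47.3 TPM in LD, 34.6 with IL-6, 38.8 with IL-8, 27.8 in RM and 14.6 at HD. On TPM, LD was the highest and HD the lowest library, at -1.63 log2 units from LD and at 0.231 times its reads (0.113 to 0.424). LOX had 27 reads in LD, 19 with IL-6, 41 with IL-8, 10 in RM and 2 at HD, the last of them under the 3 reads taken as the floor. The LOX level was 3.69 TPM in LD, 3.58 with IL-6, 7.79 with IL-8, 1.69 in RM and 2.14 at HD (0.259 to 7.73), and the read ratio of HD to LD was 0.271 (0.0312 to 1.08).

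At low density LOX thus ran from its highest value with IL-8 to its lowest with both cytokines. The read ratio to LD was 2.23 with IL-8 (1.34 to 3.77), where the TPM difference of 0.91 log2 units was under the fold and past it in 4 of the 8 settings. In RM the ratio was 0.425 (0.184 to 0.906), with a TPM difference of -0.80 log2 units that passed the fold in 2 of the 8 settings. Between RM and IL-8 directly, LOX differed by -1.71 log2 units in RM, at 0.191 times the reads (0.0851 to 0.387). LOX was 0.0781 times LOXL2 per length in LD (0.0500 to 0.118), 0.104 with IL-6, 0.201 with IL-8 (0.137 to 0.289), 0.0606 in RM (0.0283 to 0.116) and 0.146 at HD (0.0158 to 0.670). LOXL2 was therefore the more abundant transcript of the pair in all 5 libraries.

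The second question, whether the combination differed from each cytokine alone, does not use LD. RM against IL-6 had 1 of 10 genes higher, LAMA4 by 2.25 log2 units on TPM and 1.12 on CPM, where 6.34% of all genes were higher. It had 2 of 10 lower, THBS1 at -1.54 and LAMB1 at -1.03 log2 units, where 22.7% of all genes were lower. LAMB1 lay just past the fold, passed it in 3 of the 8 settings and stood at -0.78 on CPM outside RNA5-8S5, a ratio of 0.580 (0.461 to 0.729). RM against IL-8 had 1 of 10 higher, LAMA4 by 3.97 log2 units on TPM and 1.35 on CPM, against 9.87% of all genes. It had 2 of 10 lower, LOX at -1.71 and THBS1 at -1.14 log2 units, against 14.9% of all genes. The read interval lay above 1 for 3 of 10 genes and below 1 for 4 in either comparison. Of all genes compared, 8.01% lay above and 22.2% below against IL-6, and 10.8% above and 15.8% below against IL-8. Most genes had far fewer reads than the matrix genes, and of the genes with at least 10 reads in both libraries the interval excluded 1 for 60.8% against IL-6 and 56.7% against IL-8. FN1 was among the higher in both, at 1.26 times IL-6 (1.15 to 1.38) and 1.76 times IL-8 (1.59 to 1.95). The ratios to LD were counted in the same way. With IL-6, 2 of 10 genes lay above 1 (11.4% of all genes compared) and 3 below (9.42%), and with IL-8 2 lay above (10.3%) and 5 below (17.1%). In RM, 1 of 10 lay above (9.26%) and 7 below (22.2%), and at HD 1 lay above (42.7%) and 7 below (19.9%). Of the genes with at least 10 reads in both libraries, the interval excluded 1 for 39.7% with IL-6, 56.4% with IL-8, 62.3% in RM and 77.2% at HD, beside 5, 7 and 8 of 10 matrix genes and, at HD, 7 of the 8 with that many reads. No count here is read as particular to the matrix genes.

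Ranked per length, SPARC came first and FN1 next in each low-density library, and their intervals did not overlap. LOXL2 came next in LD and with IL-8, LAMB1 with IL-6, and LAMA4 in RM on its TPM value. LOX and TNC were the bottom pair in LD, IL-6 and RM, where their intervals overlapped, and LAMA4 and TNC were the bottom pair with IL-8. Of 9 neighbouring pairs in the order, 4 in LD, 5 with IL-6, 4 with IL-8 and 4 in RM had overlapping intervals, against 8 in HD. In HD the order was thus hardly resolved, and only SPARC above TNC could be told apart among neighbours.

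Other genes of the same matrix were examined through 6 lists, which comprised laminin chains, elastic fibre and fibrillin partners, matricellular glycoproteins, the lysyl oxidase family, collagen-modifying enzymes, and proteoglycans with basement membrane linkers. Of the 93 genes compared outside the 10, 6 were higher and 8 lower with IL-6, 8 and 13 with IL-8, 4 and 24 in RM, and 46 and 22 in HD. Over all genes compared, 9.84% were higher and 7.47% lower with IL-6, and 7.99% and 16.4% with IL-8. The shares were 6.44% and 20.4% in RM, and 61.9% and 17.9% in HD. The median difference of the 93 genes was 0 with IL-6 and IL-8, -0.26 in RM and 0.80 at HD, beside 0, 0, 0 and 1.87 over all genes compared. In RM the lower genes included 6 of 18 elastic fibre genes (list median -0.52), 7 of 18 collagen-modifying enzymes (-0.45), 5 of 24 proteoglycans and linkers (-0.17), 5 of 21 matricellular genes (-0.07), 1 of 9 laminin chains and 0 of 3 lysyl oxidases, beside 20.4% over all genes. In the same order 2, 0, 1, 0, 1 and 0 genes were higher, beside 6.44% over all genes.

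**Figure D5:**
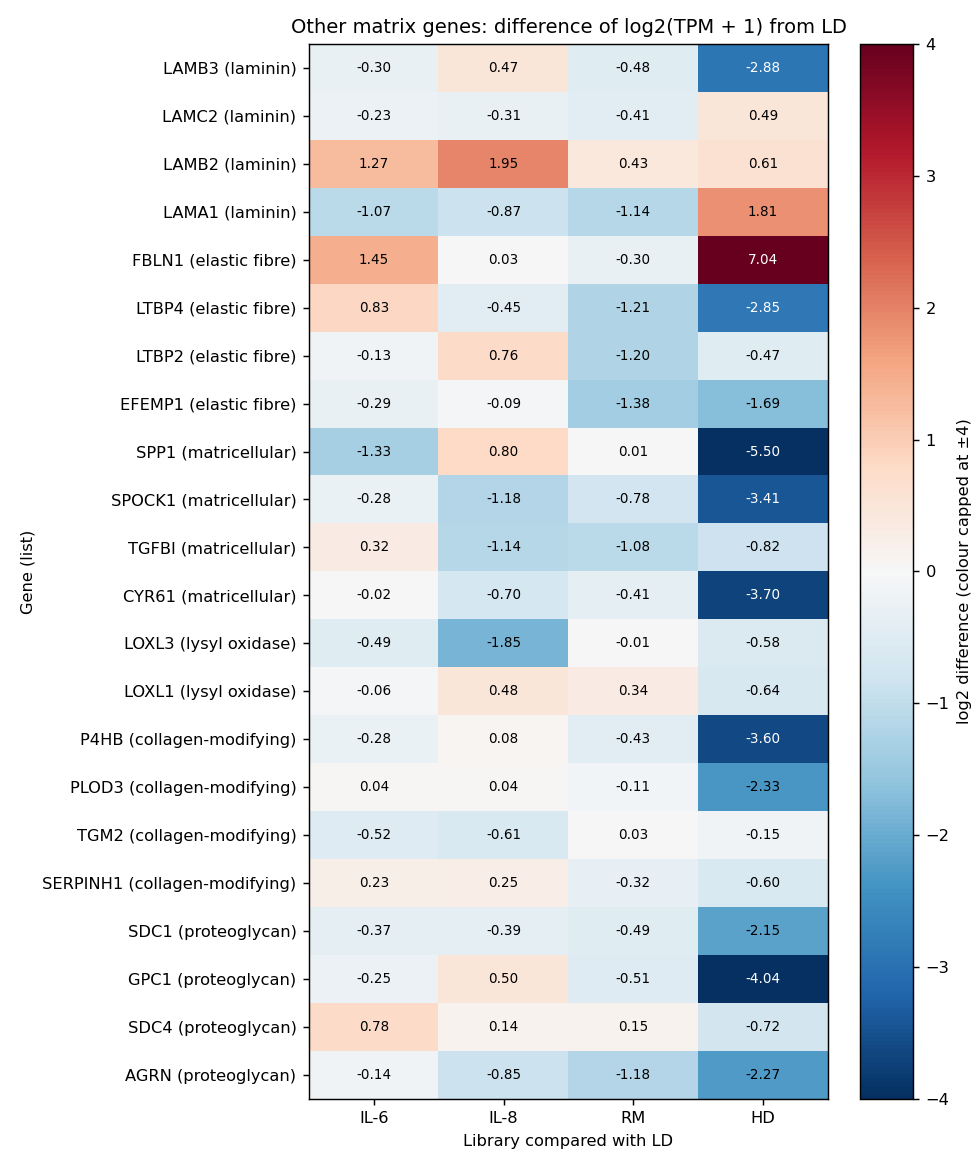
Difference of log2(TPM + 1) from LD (number and colour, colour capped at 4 units) for the genes of highest mean TPM in each of the 6 other matrix lists, in the IL-6, IL-8, RM and HD libraries. LAMB2 stands out with IL-8 at 1.95, LTBP4, LTBP2 and EFEMP1 are at -1.20 or below in RM, and FBLN1 reaches 7.04 in HD. The mean covers all 5 libraries, and FBLN1 was selected through its HD value.

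Among the laminin chains, LAMB2, the β chain that can replace β1 in a trimer, had 60 reads in LD, 106 with IL-6, 189 with IL-8, 81 in RM and 16 at HD. It was 1.27 log2 units higher than LD with IL-6 and 1.95 higher with IL-8, where its read ratio was 4.63 (3.44 to 6.29). The TPM ratio of LAMB2 to LAMB1 was 0.230 in LD (0.171 to 0.306), 0.509 with IL-6 (0.396 to 0.650), 1.66 with IL-8 (1.31 to 2.12), 0.573 in RM (0.430 to 0.760) and 1.30 at HD (0.543 to 3.35). The IL-8 library was thus the 1 library in which LAMB2 exceeded LAMB1 beyond counting error. LAMB3, a chain of epithelial laminin that this line expresses, was the most abundant laminin transcript, at 320 TPM in LD, 259 with IL-6, 443 with IL-8, 228 in RM and 42.6 at HD.

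Of the partners of FBN1, LTBP2, LTBP4 and the fibulin EFEMP1 were lower in RM, at -1.20, -1.21 and -1.38 log2 units from LD. Their read ratios were 0.461 (0.368 to 0.573), 0.380 (0.265 to 0.535) and 0.391 (0.271 to 0.555). FBN1 itself was at 1.07 times LD on reads in RM. The decreases were not confined to RM, as HD lay at -0.47, -2.85 and -1.69 log2 units from LD for the same partners, on 35, 5 and 6 reads. With IL-8 alone LTBP2 stood at 1.88 times LD on reads (1.61 to 2.20). FBLN1 had 4 reads in LD, 12 with IL-6, 3 with IL-8, 2 in RM and 182 at HD. Its HD value was 259 TPM, beside 0.971 TPM in LD. That HD value also gave FBLN1 its place among the genes named, which were ranked by mean TPM over the 5 libraries.

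Of the other matricellular genes, SPP1 (osteopontin) was at 166 TPM in LD, 65.2 with IL-6, 289 with IL-8, 167 in RM and 2.69 at HD, where it had 1 read. Its read ratio to LD was 0.403 with IL-6 (0.319 to 0.506) and 1.90 with IL-8 (1.65 to 2.19). The proteoglycan SPOCK1 and the adhesion protein TGFBI were lower with IL-8, at -1.18 and -1.14 log2 units from LD on TPM (-1.06 and -0.72 on CPM). On TPM they were also below LD in RM, at -0.78 and -1.08, and in HD, at -3.41 and -0.82. In the lysyl oxidase family LOXL3 was lower with IL-8, at -1.85 log2 units from LD, going from 114 to 21 reads, in the library where LOX was highest. The TPM ratio of LOX to LOXL3 was 0.126 in LD (0.0794 to 0.193) and 1.05 with IL-8 (0.605 to 1.87), and between 0.0579 and 0.174 in the other 3 libraries. Of the basement membrane linkers, agrin (AGRN) was lower in RM, at -1.18 log2 units from LD. It was also below LD with IL-8, at -0.85, and further below in HD, at -2.27 log2 units.

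Because SPARC was the most counted of the 10 genes, its profile over the 5 libraries was compared with those of 1890 well-counted genes by the Euclidean distance of mean-centred log2(TPM + 1) values. The 5 nearest genes were LAMB3 at a distance of 0.275, HSPA5 at 0.288, RANGAP1 at 0.301, HMGB1 at 0.326 and ACTN1 at 0.333, where the median over all 1890 was 1.91. LAMB3 is a laminin chain, HSPA5 a chaperone of the endoplasmic reticulum, RANGAP1 a nuclear transport factor, HMGB1 a chromatin protein whose pseudogenes can share its reads, and ACTN1 an actin crosslinker. All 5 shared the low value in HD, between 28.2 TPM for HSPA5 and 188 TPM for HMGB1, against 201 and 1596 TPM in LD, and these profiles share the same 5 libraries and their depth.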

How the data were processed

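RNA from HT1080 cells in collagen was primed on poly-A, amplified with phi29 polymerase and sequenced as 50-base single reads, 1 library per condition. The authors deposited a whole-number read count per gene, without normalization, and a TPM value per gene, both from Bowtie2 and RSEM. The submitters' processing notes name Bowtie2 2.3.1, RSEM 1.2.25, CASAVA 1.4 and GRCh37 (hg19), and the annotation is not given in the sources used here. TPM was rescaled to 1000000 over the listed genes, RNA5-8S5 included. Reads gave CPM, with exact 95% Poisson intervals for levels and exact conditional binomial intervals for ratios. A count of 3 reads was the floor. Groups came from the labels. A cell-free collagen control was not analysed here. Comparisons used log2(TPM + 1), genes that reached 1 TPM in any library and a fold of 1 log2 unit, with no test and no p. Alternatives were pseudocounts of 0.1 and 5, CPM over all reads or outside RNA5-8S5, edgeR TMM (scaling only), median centring, no filter, a mean of at least 10 TPM, and a fold of 0.5. TPM without RNA5-8S5, and all alternatives for RM against a single cytokine, were added after the data were seen. The 10 genes and all lists were chosen with earlier results of these data known. The ratios between pairs of genes, other than LAMB1 to LAMC1, were chosen after their values were seen. The text names the 10 genes, up to 4 genes of highest mean TPM per list outside the 10 and the 5 profiles nearest to the most counted gene (at least 50 reads in each low-density library and 10 in HD). List symbols were matched for 108 of 109 genes, 9 of them by older symbols. Promoters were taken from RefSeq on GRCh38.p14 and transcript lengths from GENCODE 29, neither of which is the build of the files. The scripts were tested on simulated data. The tools were R 4.3.3 with edgeR 4.0.16 and Python 3.11.15 with scipy 1.17.1, numpy 2.4.6, pandas 2.3.3 and matplotlib 3.10.9.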

Additional observations from a re-analysis of the deposited data

How the results depend on the processing

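No paired analysis was possible because each condition has 1 library, and for the same reason no library could be left out of a comparison. The sign of the difference from LD was the same in all 8 settings of scale and pseudocount for 6 of 10 genes with IL-6, 6 with IL-8, 5 in RM and 8 at HD. A percentage in parentheses below is the share of all genes counted the same way under the same setting. The count of genes lower with IL-6 (0 as reported) was 1 on CPM outside RNA5-8S5 (9.41%) and over all reads (4.4%). It was also 1 under TMM (4.76%) and at a fold of 0.5 (17.2%). Genes higher with IL-8 (0) numbered 1 at a pseudocount of 0.1 (13.7%), on CPM outside RNA5-8S5 (10.5%) and under TMM (7.81%). They also numbered 1 after centring (11.3%) and at 0.5 (15.5%). Genes lower with IL-8 (1) numbered 2 on CPM over all reads (11.5%) and 3 at 0.5 (30.5%). Genes lower in RM (1) numbered 3 at a pseudocount of 0.1 (30.8%), 2 on CPM outside RNA5-8S5 (23.1%), 0 under TMM (9.26%) and 5 at 0.5 (34.5%). Genes higher in RM (1) numbered 0 on CPM outside RNA5-8S5 (8.63%), on CPM over all reads (4.15%) and under TMM (8.17%). They numbered 2 after centring (11.1%) and at 0.5 (12.3%). Genes lower in HD (5) numbered 8 on CPM outside RNA5-8S5 (23.6%) and under TMM (24.6%), and 3 on CPM over all reads (12.5%). They numbered 9 after centring (25.9%), 4 at a pseudocount of 5 (13.4%) and 7 at 0.5 (22.6%). Genes higher in HD (1) numbered 2 on CPM over all reads (63.6%). They numbered 0 at a mean of at least 10 TPM (39.3%), which left 8 genes and removed TNC and LOX. Against IL-6, genes higher in RM (1) numbered 0 on CPM over all reads (4.48%). Genes lower (2) numbered 1 at a pseudocount of 5 (8.6%), on CPM over all reads (14.3%) and after centring (12%). They numbered 0 under TMM (9.2%) and 4 at 0.5 (39%). Against IL-8, genes higher in RM (1) numbered 2 at a pseudocount of 0.1 (16.2%), after centring (11.8%) and at 0.5 (17.6%), and 3 under TMM (9.36%). Genes lower (2) numbered 0 at a pseudocount of 5 (6.46%) and 4 at 0.5 (26.2%). They numbered 1 under TMM (10%), after centring (12.1%) and at a mean of at least 10 TPM (21%). LAMA4 in RM reversed to -0.135 log2 units on CPM outside RNA5-8S5 and -0.252 on CPM over all reads, where the reads per TPM given above differ. The causes of this reversal and of the changed counts were not tested. Over all genes, the share of higher among those past the fold was 32.8% with IL-8, 24% in RM and 77.6% in HD, against 49.1, 46.9 and 61.1% under TMM and 50.7, 48.7 and 66.1% after centring. For RM against IL-6 it was 21.9%, and 48.1% under TMM and after centring. TPM without RNA5-8S5 changed none of the counts of the 10 genes. Depth limited LOX in HD (2 reads) and LAMB1 and LAMC1 there (9 and 12 reads).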

Other observations

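Outside the 10 genes, the chaperones and enzymes that cells use to make collagen were well counted at low density. In HD they rested on far fewer reads, 24 for P4HB and 39 for SERPINH1. The genes below belong to the lists counted above, and their own values were not given there. P4HB, the protein disulphide isomerase subunit of prolyl hydroxylase, was at 600.2 TPM in LD, 495 with IL-6, 636 with IL-8, 444 in RM and 48.8 at HD. SERPINH1, the collagen chaperone of the endoplasmic reticulum, was at 109 TPM in LD, 128 with IL-6, 130 with IL-8, 87.1 in RM and 71.5 at HD. TGM2, a transglutaminase that crosslinks fibronectin, was at 140 TPM in LD, 97.0 with IL-6, 91.4 with IL-8, 142.5 in RM and 125.5 at HD, so that it differed from LD by -0.15 log2 units in HD on TPM and by -1.22 on CPM. The cell-surface proteoglycan GPC1 was at 128.5 TPM in LD, 108 with IL-6, 182 with IL-8, 90.2 in RM and 6.85 at HD, the last on 6 reads. LAMA1, the α chain of embryonic laminin, had 30 reads in LD and 33 in the shallower HD library, a CPM ratio of 4.03 (2.38 to 6.83). Its difference of 1.95 log2 units on CPM lay near the median of 1.69 over all genes compared. On that scale 57.9% of those genes were at least 1 log2 unit higher in HD. Over the 4774 genes with at least 10 reads in both libraries, LAMA1 included, the median on CPM was lower, at 0.21. LOXL4 had 0 reads in the 4 low-density libraries and 4 in HD, a library with reads on 226 of 368 olfactory receptor genes.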
